A study of Mus musculus with 18 samples.

Results

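The resting translatome of Cx3cr1-tagged cells was taken as the comparison of the positive fraction with the input fraction within the 4 animals that had received PBS. Translating ribosome affinity purification (TRAP) pulls ribosomes out of a tissue lysate by a tag carried in 1 cell type, so that the RNA bound to them can be sequenced next to the RNA of the whole lysate. The members were the 8 libraries of animals 268, 272, 273 and 506, out of 18 libraries from 9 animals in the series, and all 36172 listed genes, of which 14447 passed the filter of over 20 normalised counts in every library of at least 1 fraction. All animals were Cx3cr1-cre/ERT2+; NuTRAP+ mice of about 3 months of age, 2 females (268 and 506) and 2 males (272 and 273) in the PBS group. Tamoxifen was given 3 to 4 weeks before tissue was taken, and PBS was injected intraperitoneally 24 h before. The LPS animals carried the same alleles and received 5 mg/kg lipopolysaccharide in place of PBS. In these mice the Cre recombinase sits in 1 Cx3cr1 allele, so that 1 intact allele is left, and cells that express Cx3cr1 at the time of tamoxifen switch on an EGFP-tagged ribosomal protein L10a. Cells with an active Cx3cr1 promoter at that time can be tagged, which includes long-lived macrophages of the brain's borders as well as microglia. Pulldown from mice without the tag was not analysed here.

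Microglia are the resident macrophages of the brain parenchyma. They depend on signalling through the Csf1 receptor, sense neurons and vessels through purinergic and chemokine receptors, clear debris and synapses with help of complement, and degrade what they take up in a large lysosomal system. Myelin, by contrast, is made by oligodendrocytes, ion and glutamate buffering is the work of astrocytes, and the barrier to the blood is formed by endothelial cells with pericytes. In bulk tissue, fewer cells of a type and less RNA per cell cannot be told apart.

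The microglial markers were high in every positive library. Cx3cr1, the fractalkine receptor that gives the line its name, held 613, 875, 851 and 730 normalised counts in the input libraries of animals 268, 272, 273 and 506, and 12863, 14995, 13418 and 15003 in their positive libraries. The fold change was 4.21 ± 0.08 on the log2 scale (SE), or 18.5-fold, with an adjusted p of 4.01e-13. Aif1, which encodes the actin-binding protein IBA1, held 132, 220, 154 and 185 in input and 3373, 3679, 3366 and 4349 in positive (log2 4.43 ± 0.10). C1qa, a chain of the complement component C1q, went from 1447, 1935, 1593 and 1546 to 32618, 29842, 32964 and 37746 (log2 4.36 ± 0.10). Itgam, the integrin CD11b, went from 726, 762, 654 and 697 to 12563, 12600, 10514 and 12627 (log2 4.09 ± 0.07). For all of these markers the lowest positive library lay far above the highest input library, and the spread within a fraction was small beside the step between fractions. Border macrophages express Cx3cr1, Aif1 and Itgam too, so these markers show tagged myeloid cells in every animal and do not set microglia apart. In mm10 the file places Cx3cr1 on chromosome 9 (120048683 to 120068296), Aif1 on chromosome 17 (35170992 to 35176001) and Itgam on chromosome 7 (128062640 to 128118491).

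**Figure D1:**
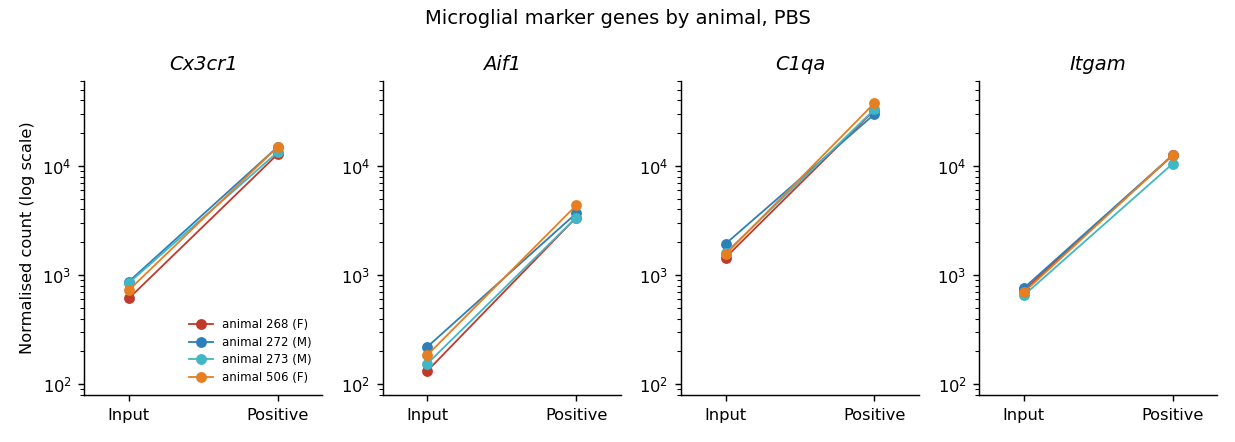
Normalised counts (log axis) of the markers Cx3cr1, Aif1, C1qa and Itgam in the input and positive libraries of the 4 PBS animals, joined by animal; F is female and M is male. Every line rises, and the fitted log2 fold changes lie between 4.09 and 4.43.

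Promoter windows of RefSeq (GRCm38.p6, 250 bases before to 50 bases after the start, gene strand, 5′ to 3′) are shown for 3 markers and for Pld4, an endolysosomal nuclease among the most raised genes, because they show where the letters of a known macrophage motif lie. Capitals mark the letters GAGGAA on either strand, the core of the box bound by PU.1, the lineage factor of macrophages encoded by Spi1.
Itgam, chr7:128062390-128062689, plus strand: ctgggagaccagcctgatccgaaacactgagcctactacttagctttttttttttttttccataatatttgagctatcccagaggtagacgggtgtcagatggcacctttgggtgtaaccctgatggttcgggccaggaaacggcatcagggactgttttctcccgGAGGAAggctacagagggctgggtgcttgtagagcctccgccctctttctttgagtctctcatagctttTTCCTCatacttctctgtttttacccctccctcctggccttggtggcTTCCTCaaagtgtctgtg
Aif1, chr17:35176003-35176302, minus strand: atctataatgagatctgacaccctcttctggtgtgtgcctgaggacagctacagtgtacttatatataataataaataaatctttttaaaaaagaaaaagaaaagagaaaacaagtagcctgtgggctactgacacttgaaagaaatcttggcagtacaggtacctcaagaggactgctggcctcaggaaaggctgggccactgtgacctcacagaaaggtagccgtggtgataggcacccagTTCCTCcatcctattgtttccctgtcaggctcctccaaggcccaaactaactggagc
Pld4, chr12:112760405-112760704, plus strand: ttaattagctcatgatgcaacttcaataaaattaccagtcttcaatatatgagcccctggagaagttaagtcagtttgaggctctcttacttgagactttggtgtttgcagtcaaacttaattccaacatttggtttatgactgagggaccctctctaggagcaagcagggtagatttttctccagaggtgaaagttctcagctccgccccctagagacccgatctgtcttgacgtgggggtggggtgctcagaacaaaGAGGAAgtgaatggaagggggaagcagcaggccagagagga
Cx3cr1, chr9:120068247-120068546, minus strand: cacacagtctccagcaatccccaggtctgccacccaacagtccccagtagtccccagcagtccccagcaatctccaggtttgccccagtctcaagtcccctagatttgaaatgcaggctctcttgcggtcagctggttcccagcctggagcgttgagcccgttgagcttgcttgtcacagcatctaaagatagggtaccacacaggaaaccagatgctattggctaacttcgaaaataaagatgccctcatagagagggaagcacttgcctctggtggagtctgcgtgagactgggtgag
The Itgam window held 3 matches, Aif1 and Pld4 held 1 each, and Cx3cr1 held 0 in these 300 bases. The longer form GAGGAAGT, which contains the shorter one, was present in the Pld4 window. No other available window of the markers or of the 15 most raised genes named below held it. Of those not printed, Gp9, Susd3, Xlr, Fcrls, Gna15 and Trem2 held the shorter form, and Crybb1, Cryba4, Ly86 and Il7r held neither. Of 463 windows of genes over 5-fold higher in the positive fraction (377 genes), 46.2% held GAGGAA and 11.2% held GAGGAAGT on either strand. Among 14601 windows of all tested genes the shares were 26.7% and 2.84%, and among all 32851 windows the corresponding shares were 28.3% and 3.2%. Windows of called genes that were higher by up to 5-fold held the longer form in 3.47%, and those of called lower genes in 2.17%. The 37 windows of genes over 5-fold lower held the shorter form in 37.8% and the longer form in 5.41%, at a GC content of 54.4%. No test of these shares was made. The windows of the genes over 5-fold higher had a GC content of 53.4%, against 60.3% for tested genes and 53.8% for all windows. A match describes the letters of these windows and does not show binding.

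Of the 14447 genes tested, 6634 were called (45.9%; adjusted p under 0.05 and a log2 fold change of over 0.32 in size), 3234 of them higher (22.4%) and 3400 lower (23.5%) in the positive fraction. The raised genes reached further than the lowered ones. Over 5-fold, 490 genes were higher (3.39% of those tested) and 37 were lower, and over 16-fold 100 genes were higher. The largest fitted difference was 4.70 on the log2 scale upward and -3.37 downward. Of the calls, 6476 moved the same way in all 4 animals and 5447 had no overlap between the 4 input and the 4 positive libraries. These counts were taken among genes called on the same libraries, so they describe the calls and are not separate evidence for them. A further 2223 genes passed the adjusted p but not the fold change. By construction of the filter, 317 of the tested genes entered only through the positive fraction and 495 only through input, and 336 of the 490 genes over 5-fold higher also passed in input. The scale sets where 0 lies. With size factors from the median of ratios the median of all tested genes was -0.01, whereas scaling to total counts put it at -0.12 and the deposited log2 values at -0.13. Under those scalings the calls held 2490 higher and 4390 lower genes, and 2465 higher and 4578 lower genes, so that the share of higher genes among the calls went from 48.7% to 36.2% and 35.0%.

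**Figure D2:**
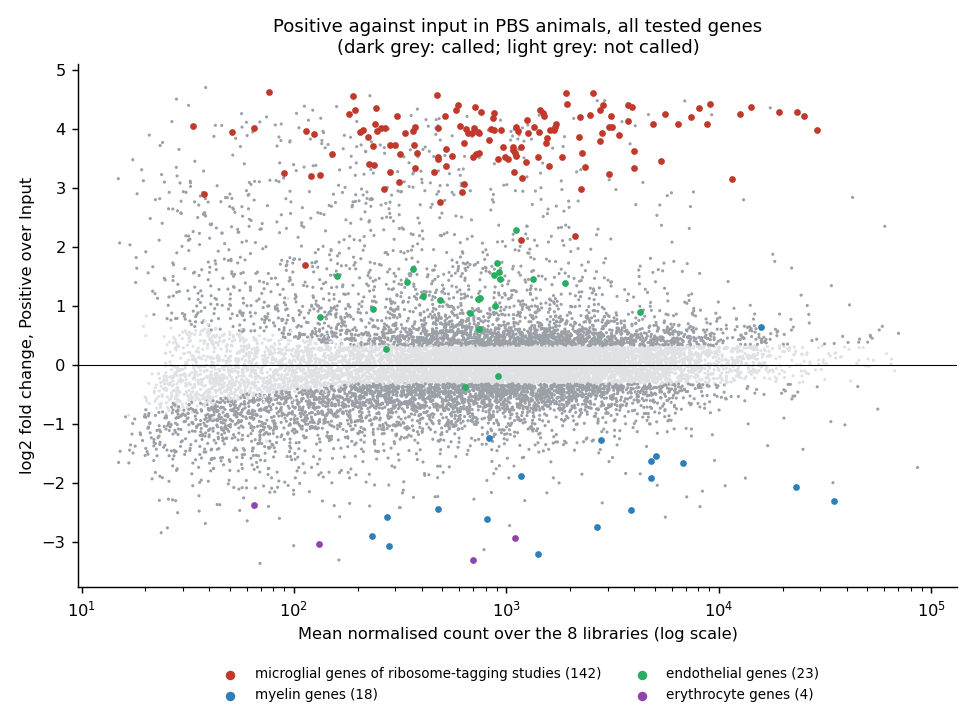
Fold change of the positive over the input fraction (log2, vertical) against the mean normalised count over the 8 libraries (log axis, horizontal) for 14447 genes, with called genes in dark grey and genes of selected lists in colour. The 142 microglial genes of ribosome-tagging studies, a list chosen for a high ratio of positive over input, lie around a median of 3.94, while erythrocyte genes and all myelin genes except Trf lie below 0.

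Libraries held between 22968939 and 31103833 counts, with 17962 to 18911 genes detected. A gene with 3 counts, taken as the limit of detection, makes up between 9.65e-06% and 1.31e-05% of a library. Some genes named below were listed at 0 in all 8 libraries. Those zeros were not checked against the reads and are not taken as absence of the RNA. Positive library 268 stood apart in long noncoding RNA, with a summed share of 0.636% for the 14 listed genes in the file against 0.259% to 0.29% in the other positive libraries, and values for named noncoding genes are given with and without it. Between animals, of 37 lists with a tested member, the list medians of both females lay above those of both males in 19 and below both in 8. The lists share genes and the same libraries, so they are not separate observations. For the microglia list of the study the medians of the log2 ratio were 3.44 and 3.48 in the females and 3.21 and 3.21 in the males. With 2 animals per sex an exact permutation test cannot go below a two-sided p of 0.333, and sex and other differences between these animals cannot be told apart.

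The 15 most raised genes that met the rule for naming lay between 4.38 and 4.63 on the log2 scale, or 20.9-fold to 24.7-fold. In order of fold change they were Gp9, Crybb1, Bin2, Susd3, Xlr, Cryba4, Lag3, Pld4, Fcrls, Selplg, Aif1, Gna15, Ly86, Trem2 and Il7r. Several encode surface or signalling proteins of myeloid cells. Trem2 is a lipid-sensing receptor of microglia, Fcrls is an Fc receptor-like scavenger protein, Selplg is the P-selectin ligand, Ly86 is the partner of the Toll-like receptor relative RP105, and Gna15 is a G protein alpha subunit of blood cells. Bin2, a BAR-domain protein of phagocytes, held 164, 250, 205 and 190 normalised counts in input and 4384, 5885, 5043 and 4352 in positive, and its log2 fold change of 4.61 ± 0.07 was among the most precise. Crybb1 and Cryba4 are beta-crystallins, best known from the lens. Crybb1 held 124, 172, 163 and 136 in input and 4193, 2675, 3468 and 4388 in positive. Cryba4 held 10.5, 23.5, 11.8 and 15.6 in input and 369, 323, 282 and 474 in positive. Lag3, a ligand of MHC class II best known from T cells, was at 5550 ± 304 in positive and 250.0 ± 35.7 in input (SD, n = 4). Gp9, a platelet glycoprotein, was the most raised at 4.63 ± 0.28 but rested on 3.91 to 6.41 normalised counts in input.

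Lists of microglial genes rose almost as a whole. Of the 239 genes that the study tabulated as microglial from published data on purified and single cells, 238 were tested, 231 were higher and 3 were lower, with a median of 3.34 on the log2 scale beside -0.01 for all tested genes. The 3 that fell were Nfkbiz (-0.97 ± 0.18), Nfkbid (-0.72) and Sgk1 (-0.72 ± 0.08). Nfkbiz and Nfkbid encode atypical inhibitors of NF-kappaB, and Sgk1 is a kinase that many brain cell types use. Sgk1 was abundant in both fractions, at 5530 ± 638 in input and 3342 ± 263 in positive. The second list of the study, 142 genes common to ribosome-tagging studies of microglia, shares 93 genes with the first. The study built it from genes over 5-fold higher in the positive fraction, its own Cx3cr1-NuTRAP mice included, so that its direction here was set by the choice and is not independent evidence. As a description, all 142 were tested and higher, with a median of 3.94 and quartiles of 3.53 and 4.17, and 17 of them passed the filter through the positive fraction alone. Its smallest fold changes were those of Pilra (1.70 ± 0.19), Hvcn1 (2.12 ± 0.07) and Abi3 (2.18 ± 0.07). Together the 239 microglial genes took 0.595% ± 0.034 of the counts in input and 4.07% ± 0.25 in positive (SD, n = 4).

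Among homeostatic microglial genes, all 25 listed surface and secreted proteins were higher, with a median of 4.08. P2ry12, the purinergic receptor that steers microglial processes, held 498, 645, 441 and 603 in input and 9165, 9524, 7466 and 10857 in positive (log2 4.08 ± 0.08). Tmem119, a microglial membrane protein, was raised by 4.35 ± 0.08, and Csf1r, the receptor on which microglial survival depends, by 4.22 ± 0.07. Sparc, a secreted matrix protein also made by astrocytes and vessels, was the weakest of the list: it was at 19261 ± 2785 in input and 48475 ± 2688 in positive, a log2 change of 1.34 ± 0.08.

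Transcription factors of the microglial lineage ranged from strong enrichment to none. Of 17 listed, 16 were tested, 15 were higher and none was lower at this threshold, and Bhlhe41 was listed at 0 in all 8 libraries. Spi1, which encodes PU.1, went from 145, 189, 143 and 141 to 2809, 2922, 2888 and 2838 (log2 4.22 ± 0.09). Irf8, a partner of PU.1, was raised by 3.93 ± 0.08. Sall1, which marks microglia among macrophages but is also expressed outside them, went from 847 ± 190 to 3172 ± 394 (log2 1.92 ± 0.08). Mef2c, a factor with high expression in neurons, differed by 0.23 ± 0.07 and stayed under the fold threshold. Genes of TGF-beta signalling, which maintains the microglial state, were called in 50% of cases, near the 45.9% of all genes. The ligand Tgfb1 (3.53 ± 0.08) and the receptors Tgfbr1 (3.46 ± 0.08) and Tgfbr2 (2.67 ± 0.07) were higher, while Itgb8, the integrin subunit by which other glia activate the ligand, was lower (-1.05 ± 0.11). In all 4 of 12 tested members were higher and 2 lower, and the list median of 0.06 turned to -0.05 with total-count scaling and to -0.01 without animal 273.

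Of 16 tested complement genes, 12 were higher and 3 lower, with a median of 3.23. C1qb (4.29 ± 0.10) and C1qc (4.36 ± 0.11) matched C1qa, and all these genes stand next to each other on chromosome 4. Serping1, the C1 inhibitor, went the other way, from 311, 195, 293 and 248 in input to 136, 109, 129 and 135 in positive (log2 -1.03 ± 0.13). All 19 tested Toll-like receptors and adaptors were higher, with a median of 3.01, although 6 of them had passed the filter through the positive fraction alone. Tlr7, a sensor of single-stranded RNA, rose by 3.88 ± 0.10, Tlr4, the receptor of lipopolysaccharide, by 3.01 ± 0.16 and Tlr2, a receptor of bacterial lipoproteins, by 2.87 ± 0.16. Unc93b1, which brings the nucleic acid sensors to the endosome, was highest at 4.05 ± 0.09, and Tirap, an adaptor, lowest at 0.55 ± 0.17. Without animal 268 Tirap was no longer called (0.39, adjusted p = 0.0913).

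Phagocytic receptors were higher to unequal extents. Of 16 tested Fc receptor and phagocytosis genes 14 were higher. Fcgr3, an IgG receptor, went from 469 ± 45.4 to 8855 ± 631 (log2 4.24 ± 0.09), and Cd68, a lysosomal glycoprotein of macrophages, from 157 ± 29.2 to 2545 ± 92.3 (4.02 ± 0.09). Mertk, a receptor for apoptotic cells that astrocytes also express, rose by 1.58 ± 0.08. All 20 lysosomal genes were higher, with a median of 2.35. Ctss, a cathepsin of antigen-presenting cells, went from 2014, 2687, 2314 and 2076 to 43861, 41922, 40676 and 50176 (4.28 ± 0.10). Ctsd, an aspartic protease of lysosomes in all cells, rose by 2.84 ± 0.08, Lgmn, an asparaginyl protease, by 2.80 ± 0.09 and Lamp1, a structural membrane protein of lysosomes, by 0.59 ± 0.06. MHC class II genes were at low counts in input: H2-Aa held 72.7, 57.7, 44.5 and 68.7 there and 892, 630, 503 and 798 in positive (3.53 ± 0.11). Of 8 tested in that list 7 were higher, and H2-DMa was listed at 0 in all 8 libraries.

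Genes that mark disease-associated microglia were mixed in the resting animals. Of 15 tested, 10 were higher and 1 lower, with a median of 0.93. Apoe, a lipid carrier made mostly by astrocytes, was abundant in both fractions, with 39180, 49671, 41764 and 41967 in input and 62428, 51552, 54965 and 72279 in positive (0.48 ± 0.10). Ccl6, a chemokine, rose by 4.15 ± 0.16, and Cst7, a cystatin, by 3.87 ± 0.37 on input counts of 1.75 to 10.8. Csf1, the Csf1r ligand, was lower (-0.37 ± 0.09), a call that was lost without animal 506 (-0.31). Of 15 inflammatory cytokines and chemokines, 7 passed the filter and 6 of those were higher, 4 having passed through the positive fraction alone. Il1a, an alarmin, rose by 2.89 ± 0.25 and Ccl12, a monocyte chemokine, by 3.37 ± 0.21. Tnf averaged 4.88 normalised counts in input and 10.6 in positive and Il1b 6.48 and 9.86, both under the filter.

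**Figure D3:**
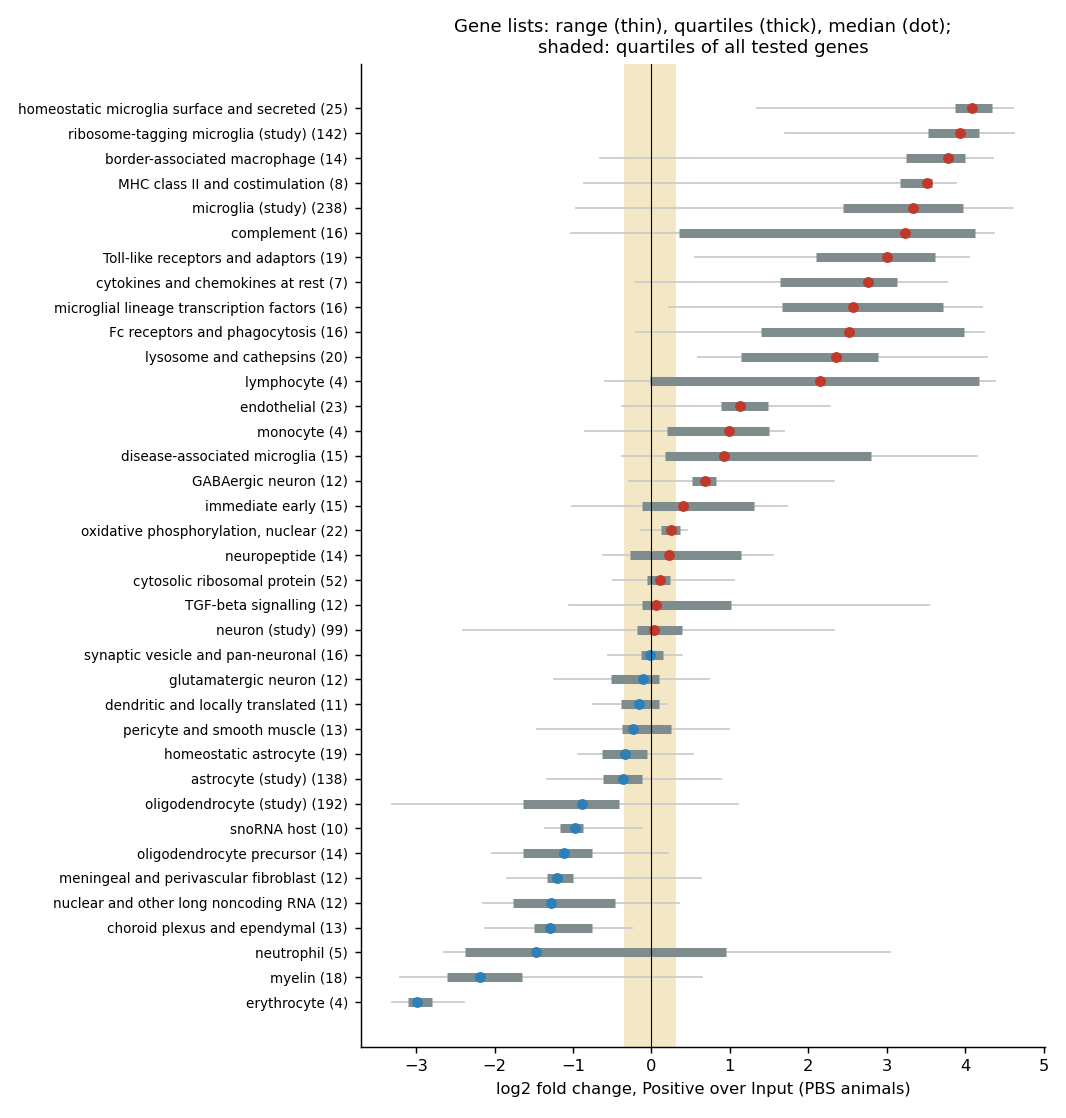
Fold changes (log2, positive over input) of the members of 37 gene lists, with the number tested in brackets; thin lines are ranges, thick lines quartiles, dots medians, and the shaded band shows the quartiles of all tested genes (-0.34 to 0.30). Medians run from 4.08 for homeostatic microglial genes to -2.99 for erythrocyte genes.

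Levels between genes were compared as normalised counts per kilobase of merged exons, with lengths from GENCODE M21 for 13701 of the tested genes (94.8%). By this measure Cst3, cystatin C, was the most abundant gene of the positive fraction, at 117259 per kilobase against 23250 in input, where it was at rank 9. Ctsd was at rank 4 in positive and 227 in input, C1qb at 5 and 962, Ctss at 7 and 1009 and C1qa at 8 and 1082. The level of Cx3cr1 was 3123 per kilobase in positive (rank 530) and 170.3 in input (rank 7781). Neuronal and housekeeping transcripts kept their high rank in the positive fraction: Snap25, a presynaptic fusion protein, was at rank 11 in positive and 2 in input, and Ckb, the brain creatine kinase, at 3 in both. Of the 100 most abundant genes of the positive fraction, 75 were also among the 100 most abundant in input, 42 were called higher and 3 lower, and 13 stood on a microglial list of the study, against 1 of the 100 in input.

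Markers of border macrophages were higher in the positive fraction as well. Of 14 listed, all were tested, 13 were higher and 1 lower, with a median of 3.78. Of these, 6 had passed through the positive fraction alone, 3 also stand on the microglia list of the study and 5 on its ribosome-tagging list. Lyve1, a hyaluronan receptor of perivascular macrophages, held 62.2, 43.0, 39.0 and 67.8 in input and 1181, 608, 504 and 1220 in positive (4.01 ± 0.12). Mrc1, the mannose receptor, rose by 3.83 ± 0.10 and Cd163, the haemoglobin scavenger receptor, by 3.05 ± 0.16. The whole list made up 0.0604% ± 0.0155 of the positive counts (SD, n = 4), against 4.07% for the 239 microglial genes of the study. By gene, Mrc1 averaged 2119 normalised counts in positive, beside 2359 for Irf8 and 14070 for Cx3cr1. Positive libraries of the females held more transcripts of the border macrophage list than those of the males, with 0.0752% and 0.0714% against 0.0516% and 0.0432%. Colec12, a collectin that vessels and fibroblasts also express, was the one that fell (-0.65 ± 0.07).

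Among transcripts of blood cells, haemoglobin genes, which come from red cells and reticulocytes, were among the most depleted: Hbb-b1 fell from 1707, 1427, 1400 and 520 to 255, 68.8, 141 and 69.1 (-3.31 ± 0.19), and all 4 tested erythrocyte genes were lower. Of these 4 genes, 2 had passed the filter through input alone. Hba-a1 and Hba-a2 are near-identical copies, and reads may be split between them. Of the neutrophil list 5 of 14 were tested: S100a8 (-2.37 ± 0.29), S100a9 (-2.65 ± 0.32) and Cxcr2 (-1.47) were lower, whereas Csf3r, which microglia also express, rose by 3.04 ± 0.09 and Mmp9, a matrix protease, by 0.95. S100a8 and S100a9 had passed the filter through input alone. Ly6g was listed at 0 in all 8 libraries. Of 10 monocyte markers 4 were tested, of which 3 were higher and 1 lower. Ccr2, the receptor that brings monocytes into tissue, held 3.91 to 18.3 normalised counts in input and 29.0 to 56.8 in positive (1.70 ± 0.33), and Plac8 averaged 3.52 and 3.81. Of 18 lymphocyte genes 4 were tested. Il7r and Cd79b (4.11) rose, having passed the filter through the positive fraction alone. Cd4 (0.18 ± 0.14) and Lck (-0.60) were not called, and Cd3e and Cd79a averaged 2.06 and 3.19 in positive, under the filter. Cxcr2, Mmp9, Cd79b, Lck and Nfkbid are named because their counts are small, and were chosen after their values were seen.

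Endothelial genes were the largest non-myeloid group that rose. Of 23 tested, 20 were higher and 1 lower, with a median of 1.13, above the upper quartile of all genes (0.30). Eng, a TGF-beta co-receptor of endothelium that macrophages also express, held 394, 439, 373 and 315 in input and 1799, 2046, 1922 and 1601 in positive (2.28 ± 0.07). Pecam1 (1.72 ± 0.07) and Cldn5, the tight junction claudin of the barrier (1.52 ± 0.07), rose, as did Cdh5, the endothelial cadherin (1.17 ± 0.12). Mfsd2a, the lipid transporter of brain endothelium, was lower (-0.37 ± 0.10), a call that was lost without the animal block (-0.35, adjusted p = 0.0735) and without animal 272 (-0.25). Of 13 pericyte and smooth muscle genes 1 was higher and 5 were lower (median -0.23). That is 46.2% called, near the 45.9% of all genes. The gene that rose was Myh11 (0.99 ± 0.20), while Pdgfrb was at -0.37 ± 0.11. Rgs5 was at 0.21 ± 0.13 (not called, but called at 0.35 without animal 506), and Acta2 was listed at 0 in all 8 libraries. Of 12 fibroblast genes 10 were lower and 1 higher (median -1.20), with Col1a1, collagen I, at -1.28 ± 0.14. Igf2, a growth factor of the leptomeninges, was the one that rose (0.63 ± 0.06). In the choroid plexus and ependymal list 11 of 13 were lower and 0 higher (median -1.30), and 2 of the 13 had passed the filter through input alone. Ttr, the thyroxine carrier of the choroid plexus, fell from 17279 ± 2900 to 4143 ± 417 (-2.05 ± 0.11), and Folr1, its folate receptor, was also lower (-2.13 ± 0.23). The part of endothelial cells or border macrophages in these values was not tested.

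Myelin genes were depleted nearly as a whole. Of 18 myelin genes 17 were lower and 1 higher, with a median of -2.19. Mbp, myelin basic protein, held 52154, 73543, 62528 and 42876 in input and 12420, 12529, 13201 and 8423 in positive (-2.30 ± 0.08). Mog, a protein of the outer sheath, was lower too (-1.88 ± 0.09). Ermn, a cytoskeletal protein of mature oligodendrocytes, went from 2050, 3386, 2416 and 2305 to 286, 292, 193 and 321 (-3.21 ± 0.13). Input library 272 was the highest for Mbp, Mog and Ermn, and the summed myelin share ran from 0.525% to 0.788% in input, whereas it was 0.195% ± 0.00759 in positive (SD, n = 4). Trf, transferrin, stood against the list with a rise from 12437 ± 2743 to 19169 ± 1836 (0.64 ± 0.10).

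The 15 most lowered genes were 2810433D01Rik, Klk6, Hbb-b1, Ermn, Beta-s, Gjb1, Lrrc17, Hba-a2, Hba-a1, Opalin, Cldn11, Anln, S100a9, Ugt8a and Bfsp2, between -3.37 and -2.60. Klk6, Ermn, Gjb1, Opalin, Cldn11, Anln and Ugt8a are genes of mature oligodendrocytes, Beta-s is a beta-globin, and 2810433D01Rik is a noncoding gene of no known role here. Cldn11, the claudin of myelin sheaths, held 4138, 5420, 4916 and 4190 in input and 683, 609, 711 and 750 in positive. Gjb1, a connexin of oligodendrocytes, went from 380, 760, 499 and 371 to 52.6, 73.3, 59.4 and 48.5. Klk6, a secreted protease, had 555 in input library 272 against 194 to 225 in the other inputs. Of the 37 genes over 5-fold lower, 19 stood on an oligodendrocyte, precursor or myelin list and 4 on the erythrocyte list.

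Across the 192 tested oligodendrocyte genes of the study 150 were lower and 10 higher, with a median of -0.88. Of the 192, 8 had passed the filter through input alone. The members that rose most were Rhog (1.10 ± 0.09), Cd82 (1.08 ± 0.10) and Sema5a (0.87 ± 0.07). Precursors were depleted too, with 11 of 14 genes lower and 0 higher (median -1.12): Pdgfra, their growth factor receptor, fell from 1363 ± 92.0 to 381 ± 44.7 (-1.84 ± 0.08), and Gpr17 was lower too (-0.96 ± 0.08). Astrocyte genes moved less. Of 138 in the list of the study 72 were lower and 7 higher, with a median of -0.37. Slc1a2, the main glutamate transporter, was higher (0.53 ± 0.08) at 83332 ± 16976 in positive, while Slc1a3, another glutamate transporter, was at -0.09 ± 0.06 and Aldh1l1, the pan-astrocytic folate enzyme, at 0.05 ± 0.08, neither of them called. Aqp4, the water channel of astrocyte endfeet, was lower (-0.48), as was Atp13a4, a transport ATPase (-1.33).

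Neuronal genes stood close to the median of all genes. Of the 99 listed by the study 28 were higher and 17 lower, which is 45.5% called against 45.9% for all genes, with a median of 0.04 that turned to -0.07 with total-count scaling. Together they made up 2.76% ± 0.04 of input and 2.51% ± 0.11 of positive counts (SD, n = 4). Snap25 held 69383 ± 3408 in input and 64912 ± 7402 in positive (-0.10 ± 0.06, not called), Syt1, the calcium sensor of release, was at -0.08 ± 0.07 and Rbfox3, the neuronal splicing factor NeuN, at 0.02 ± 0.06. Excitatory neurons gave 2 higher and 5 lower genes of 12, with Slc17a7, the cortical vesicular glutamate transporter, at 0.35 ± 0.06. Of 11 genes whose mRNA travels into dendrites or axons 3 were lower and 0 higher (median -0.16). That is 27.3% called, against 45.9% for all genes. Kif5a, a kinesin, was the lowest of the list and fell from 70077 ± 1009 to 41910 ± 5491 (-0.75 ± 0.08). Ppp1r9b was the highest at 0.19 ± 0.06, not called.

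Inhibitory neuron genes departed from this. Of 12 tested 10 were higher and 0 lower, with a median of 0.68. Vip, a peptide of a class of cortical interneurons, held 638, 555, 647 and 554 in input and 2658, 3284, 3636 and 2555 in positive (2.33 ± 0.09). Gad1 (0.86 ± 0.06) and Gad2 (0.78 ± 0.06), the enzymes of GABA synthesis, and Slc32a1, the vesicular GABA transporter (0.64 ± 0.06), rose in all 4 animals. Of 14 tested neuropeptide genes 6 were higher and 4 lower. Crh (1.55 ± 0.12) and Npy (1.20 ± 0.08) rose, while Tac1 (-0.62 ± 0.09), Penk (-0.33 ± 0.08) and Cck (-0.33 ± 0.07) fell, and the calls of Penk and Cck were lost without animal 268 or without animal 272.

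Noncoding genes were lower more often than protein-coding genes. Of 527 tested genes that the file types as other noncoding RNA, 263 were lower (49.9%) and 31 higher (5.88%), with a median of -0.51, against 22.5% lower and 23.1% higher among 13829 protein-coding genes. Without animal 268 the shares were 44.6% lower and 5.39% higher for 538 noncoding genes, and 21.2% and 23.1% for protein-coding genes. Of 12 tested long noncoding RNAs 8 were lower and 0 higher, with a median of -1.28, or -1.71 without animal 268. Malat1, a nuclear RNA of speckles, held 27202, 20830, 22470 and 19950 in input and 27260, 5279, 6255 and 6569 in positive. Only positive library 268 was level with its input. The log2 change was -1.37 ± 0.24 with an adjusted p of 0.000277, which went to 0.0824 without the block by animal, and the change went to -1.81 and 7.37e-11 without animal 268. Miat, another nuclear RNA, fell from 13517 ± 1655 to 3219 ± 1388 (-2.14 ± 0.14, and -2.39 without animal 268), and Neat1, the scaffold of paraspeckles, was lower as well (-1.85 ± 0.19, and -2.21 without animal 268). Snhg11, on the neuronal list of the study, and Trank1 (-2.40 ± 0.12), a large protein of neurons, were both lower and also high in positive library 268, with 28343 against 9726 to 11194 and 4254 against 2084 to 2227. Without animal 268 their log2 changes were -2.29 and -2.60. Hosts of small nucleolar RNAs, spliced RNAs that hardly encode protein, were lower in 9 of 10 cases (median -0.97, and -1.13 without animal 268), with Gas5 at -0.96 ± 0.11 (-1.10 without animal 268).

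Transcripts of the translation and energy machinery stayed near 0. Of 52 cytosolic ribosomal protein genes 10 were higher and 1 lower, with a median of 0.11. Rpl10a stood apart from the others at 1.06 ± 0.07, the next highest being Rps9 at 0.57, and held 2799, 3567, 3208 and 2837 in input and 5822, 6541, 7107 and 6280 in positive. The tag is itself a fusion with L10a, and reads from the gene and from the transgene cannot be told apart here. Rps21 was the one that fell (-0.49 ± 0.10), a call that was lost without animal 272 (-0.31). Of 22 nuclear genes of oxidative phosphorylation 8 were higher and 0 lower (median 0.24), with Atp5b, a subunit of ATP synthase, at 0.36 ± 0.06. Genes of the mitochondrial chromosome were not analysed here. Immediate early genes, which respond within minutes to stimulation or handling, were higher in 9 of 15 cases and lower in 3. Atf3, a stress factor, rose by 1.73 ± 0.19 and Fos by 0.40 ± 0.07, while Egr1 (-0.56 ± 0.08) and the neuronal Npas4 (-1.01 ± 0.11) fell.

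**Figure D4:**
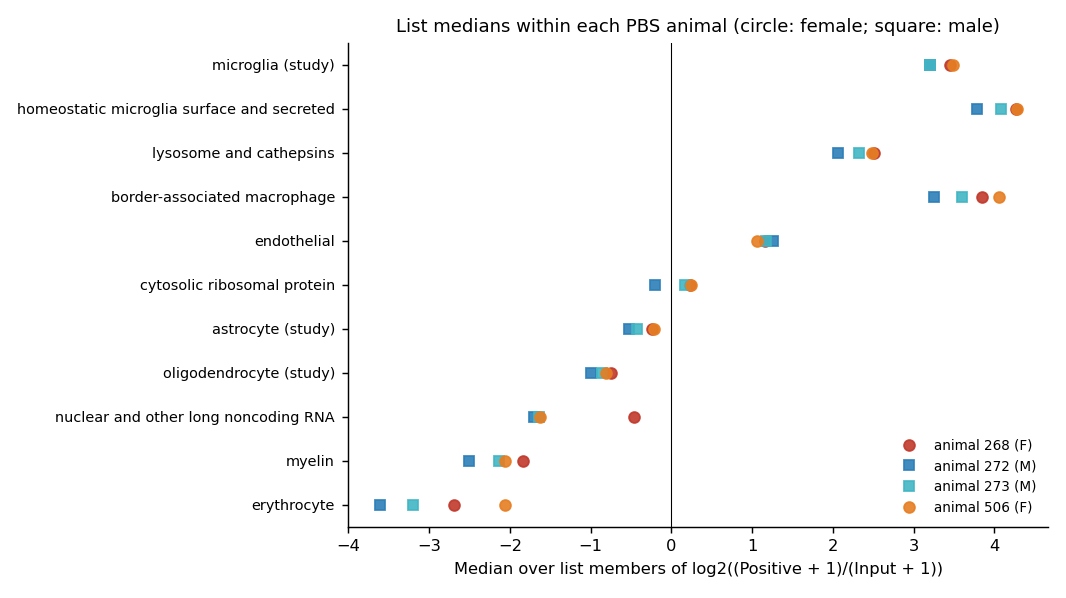
Medians of the log2 ratio of positive over input (1 added to each normalised count) over the members of 11 lists, for each PBS animal; circles are females and squares males. Animal 268 stands apart for long noncoding RNA at -0.46 against -1.70 to -1.63, and animal 272 is the lowest for ribosomal protein genes at -0.21 against 0.16 to 0.24.

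The difference between resting and LPS animals in this enrichment was fitted over 4 PBS and 4 LPS pairs, which share no library. In the LPS pairs animals 266, 270 and 507 were female and 267 was male, so the sexes were not balanced as in the PBS pairs. The part of sex in the differences below was not tested. Of 14818 genes 1916 (12.9%) differed, 580 with more enrichment in PBS animals (3.91%) and 1336 with less (9.02%). No difference was called for the 4 markers, for which the PBS minus LPS difference was 0.16 for Cx3cr1 (adjusted p = 0.408), -0.07 for Aif1 (0.775), 0.16 for C1qa (0.477) and 0.25 for Itgam (0.119). Of the 490 genes over 5-fold higher at rest, 467 also passed the filter in the LPS pairs, and 466 of those were called higher there. Genes under the filter in the LPS pairs, such as Il7r, are not in that count. The filter itself thus favours genes that kept their enrichment. The size did shift for a part of the 467, with 120 differing and 78 of those more enriched at rest. Among genes named above, Lyve1 was more enriched at rest by 2.50 on the log2 scale, Tgfbr1 by 0.84, H2-Aa by 1.14 and Sparc by 0.69, while Pilra (-2.08), Nfkbiz (-2.54) and Tlr2 (-1.07) were less enriched.

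Of 52 ribosomal protein genes 50 were less enriched at rest and 0 more, the list median being 0.11 at rest and 0.78 after LPS. Their summed share was 1.04% ± 0.14 in Input PBS, 1.04% ± 0.05 in Positive PBS, 1.08% ± 0.08 in Input LPS and 1.63% ± 0.13 in Positive LPS (SD, n = 4), and the lowest Positive LPS library (1.45%) lay above every library of the other groups. Of 23 endothelial genes 15 were more enriched at rest and 0 less, at medians of 1.13 and 0.66. Their summed share was 0.0484% ± 0.00437 in Input PBS, 0.0964% ± 0.0117 in Positive PBS, 0.0579% ± 0.00673 in Input LPS and 0.0776% ± 0.0149 in Positive LPS (SD, n = 4). The positive libraries of both treatments overlapped, at 0.0802% to 0.107% and 0.0686% to 0.0998%. Without the block by animal 48 of the ribosomal but 2 of the endothelial genes differed.

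**Figure D5:**
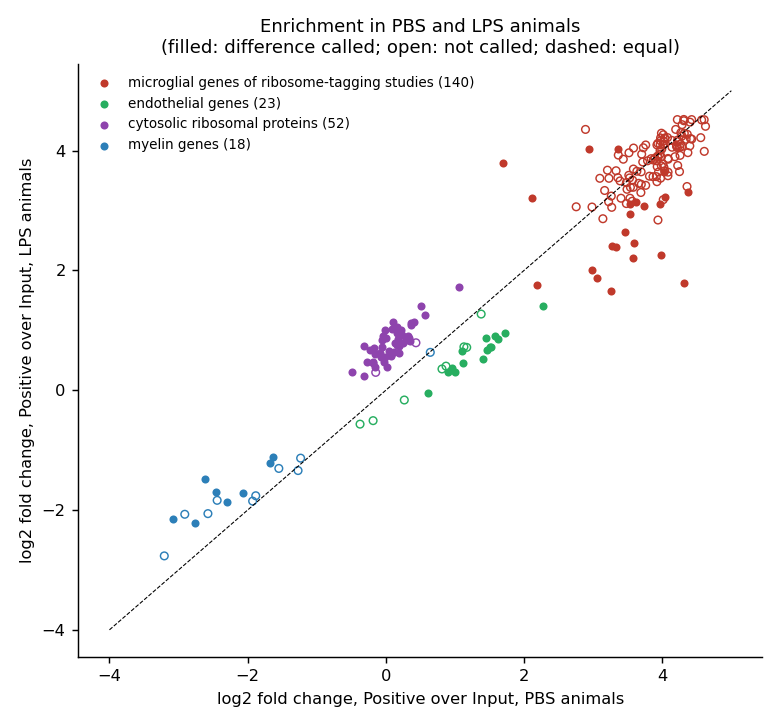
Fold change of positive over input (log2) in PBS animals (horizontal) against that in LPS animals (vertical) for genes of 4 lists; filled points differed between the treatments, open points were not called, and the dashed line marks equal values. Ribosomal protein genes lie above the line and endothelial genes below it.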

How the data were processed

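RNA was isolated by TRAP from brain of Cx3cr1-NuTRAP mice. Reads were trimmed and then mapped by the authors in Strand NGS to mm10 with RefSeq gene models and strand taken into account. The authors normalised with DESeq and deposited estimated counts and log2 values for 36172 genes. Of the nonzero estimated counts in the deposited file, 81.1% were not whole (tolerance 0.001), and they were rounded for count models. The deposited log2 values served as an alternative.

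The 8 PBS libraries were fitted with edgeR 4.0.16 (quasi-likelihood, glmQLFTest; R 4.3.3) with animal as a block, size factors from the median of ratios (0.8075 to 1.141) and a filter of over 20 normalised counts in every library of at least 1 fraction. A call required a fold change over 1.25 together with a p under 0.05 after Benjamini-Hochberg adjustment. Adjusted p-values and standard errors (SE) are edgeR's, and SDs are over 4 libraries. This model takes the place of the study's analysis of variance because the values are counts. Both libraries of an animal come from the same brain, and the deviations of input and positive correlated within each animal (r from 0.228 to 0.435 over genes). The difference between treatments was an interaction term over 16 libraries, without animal 271, whose input library held 1252 counts. On counts drawn for the 14447 genes, 100 genes were changed 2-fold and 100 were changed 4-fold. Of these, 99% and 100% were recovered, with 7 false calls. Changed genes were thus far fewer than the calls in the data, and recovery near the filter was not given separately. Counting floors (3 counts) are for counting error alone, as PCR reads lacking molecular identifiers do not each stand for a molecule.

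The members and the 38 gene lists (5 from the study's supplement, 33 from general knowledge) were chosen with earlier results of these data known. Lists are described by counts and medians, without set tests. Named genes were the 4 markers, the 15 called genes at either end of the fold changes whose mean reached 100 normalised counts in the higher fraction and which had 1 direction in all 4 animals, and for each list the first 3 symbols (general-knowledge lists) and the members at either end of its range among those reaching the same mean. For lists of the study up to 3 were taken at either end. Alternatives were DESeq2 1.42.0, limma 3.58.1 with a trend, the deposited log2 values, TMM and total-count scaling, no filter, a filter at a mean over 100, no replicate block, all 17 usable libraries, and leaving out each animal. Some members of the lists are counted but not reported here by name.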

Additional observations from a re-analysis of the deposited data

Results flagged for a closer look

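Of 67 sets of 4 animals examined for a value far from the others, 2 stood out, which is no more than the about 1 in 20 that chance gives. The median log2 ratio of long noncoding RNA was -0.46 in animal 268, against -1.63 to -1.70 in the others, and the median of the ribosomal protein genes was -0.21 in animal 272, against 0.16 to 0.24.

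Among the 33 markers and most raised and most lowered genes, 5 (15.2%) differed in enrichment between PBS and LPS animals by the interaction term, near the 12.9% of all genes. Il7r, the interleukin-7 receptor, was more enriched at rest by 3.53 on the log2 scale (adjusted p = 0.00145) and Pld4 by 0.69 (0.00543). The PBS minus LPS difference was -0.91 for Gjb1 (0.0288), -0.52 for Cldn11 (0.0172) and -1.11 for Ugt8a (0.000747), so these oligodendrocyte genes were more depleted in PBS than in LPS animals. All 8 called myelin genes went in that direction, the list median being -2.19 at rest and -1.74 after LPS.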

How the results depend on the processing

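The count of 6634 called genes ran from 5867 to 7043 over the alternatives, and 6209 to 6785 when 1 animal was left out. Without the replicate block 6163 genes were called, and with all 17 usable libraries 5899. The 37 genes over 5-fold lower became 83 with no filter, where genes near 0 in the positive fraction enter, and 30 to 73 when 1 animal was left out, the 73 without animal 268. The 1916 genes that differed between treatments became 925 without the replicate block and 1241 to 2210 when 1 animal was left out, the 1241 without animal 507; the cause was not tested. Of 182 named genes under 13 alternatives, 2306 of 2362 values kept their direction and call, 46 lost the call, 10 gained one and 0 reversed. The medians of the TGF-beta, neuronal and ribosomal protein lists changed sign with the deposited log2 values (-0.06, -0.08 and -0.01), and that of the neuronal list with total-count scaling (-0.07). Depth limits monocyte, lymphocyte and cytokine genes, most of which were under the filter, and the precision rests on 4 animals.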

Other observations

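On the neuronal list of the study, the 4 genes that rose most were Vip, described above, Htr3a (1.93 ± 0.13), a serotonin-gated channel, Pnoc (1.24 ± 0.10), the precursor of nociceptin, and Npy (1.20 ± 0.08), a peptide. They were singled out after their values were seen. Htr3a held 131, 140, 107 and 107 normalised counts in input and 431, 479, 526 and 421 in positive, so that no positive library reached down to the inputs. Crh, on the neuropeptide list (1.55 ± 0.12), a peptide hormone that cortical interneurons and hypothalamic neurons make, held 167, 207, 166 and 172 in input and 432, 710, 587 and 394 in positive.

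Crybb1 and Cryba4, both among the 15 most raised genes, are neighbours on chromosome 5 that point away from each other. Their RefSeq promoter windows in GRCm38.p6 span 112255570 to 112255869 on the plus strand and 112252469 to 112252768 on the minus strand. Neither window held GAGGAA.

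Some differences in enrichment between treatments were large, and the genes given here were chosen after their values were seen. Angptl7 was more enriched at rest by 3.85 on the log2 scale, whereas Saa3, an acute phase protein, was less enriched (-2.83). These genes do not rank all called genes, as an unnamed gene of the ribosome-tagging list differed by 3.60. Hpgd, the enzyme that breaks down prostaglandins, went from 4.01 in PBS to 1.47 in LPS animals, and Slc2a5, a fructose transporter of microglia, from 4.31 to 1.79.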
